A study of Mus musculus with 12 samples.

Results

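The 10 genes described here encode the LAR-family receptor phosphatases (Ptprs, Ptprf and Ptprd), the Nogo receptors (Rtn4r, Rtn4rl1 and Rtn4rl2), their co-receptors Lingo1 and Ngfr, and the ligands Rtn4 and Omg. They were taken by symbol from a table of 25238 genes, and all 10 were found in it and had enough reads to be tested. RNA-seq was performed on 12 cortex libraries, each taken here as 1 mouse. The methods describe punched cortex and 4 mice per group for ISP and Veh only. ISP-treated mice (ISP, n = 4) received intracellular sigma peptide, a membrane-permeable peptide against the phosphatase PTPσ that Ptprs encodes, at 1 μg/g/day. Vehicle-treated mice (Veh, n = 4) received 5% DMSO in saline. Both groups had transient middle cerebral artery occlusion of 45 min, were treated daily from day 1 post-stroke and gave peri-infarct cortex at day 14. Mice were 10 to 12 weeks old at stroke surgery. The surgery methods name males, either C57BL/6J or Nestin-CreERT2-Ai9, while the account of animals gives both sexes for the Nestin-CreERT2-Ai9 strain, and the sources do not say which strain or sex gave the RNA. The comparison mice are called vehicle-treated in the labels and methods and are said to have had a scrambled peptide in the study's results text. A further 4 libraries are labelled control, also from peri-infarct cortex, and their surgery, treatment and day are not given. They are compared only under that label. The comparison of ISP with Veh asks how the peptide altered the peri-infarct transcriptome.

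After brain injury, axons meet molecules that stop their growth. Chondroitin sulfate proteoglycans of the glial scar bind PTPσ and its relative LAR, the product of Ptprf, on the axon surface. Myelin and oligodendrocytes carry Nogo-A (from Rtn4), oligodendrocyte myelin glycoprotein (from Omg) and myelin-associated glycoprotein, all of which bind the Nogo receptor NgR1 (from Rtn4r). NgR1 has no intracellular part and signals through LINGO-1 and the neurotrophin receptor p75 (from Ngfr) or TROY to RhoA. NgR1 and NgR3 (from Rtn4rl1) also bind chondroitin sulfate.

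Total counts were 19325979 to 28685864 in ISP, 17442711 to 24706638 in Veh and 21322702 to 29845629 in control. Pan-neuronal markers were present in every library, with a summed level of 8023 to 10066 CPM in ISP, 8921 to 9803 CPM in Veh and 9720 to 10333 CPM in control for 10 genes. Some libraries stood apart. The 10 markers of activated microglia and macrophages summed to 4623 CPM in ISP 14 and 4039 CPM in ISP 18, against 1339 and 1530 CPM in the other ISP libraries, 1362 to 2206 CPM in Veh and 865 to 1424 CPM in control. The 9 markers of reactive astrocytes summed to 1752 CPM in ISP 14 and 2958 CPM in ISP 18, against 358 and 622 CPM in the other ISP libraries, 169.9 to 767 CPM in Veh and 64.5 to 74.3 CPM in control. The 8 fibroblast and meningeal markers summed to 341 to 469 CPM in ISP, 977.8 CPM in Veh 10, 278.8 to 471 CPM in the other Veh libraries and 187 to 263 CPM in control. Choroid plexus markers, foreign to cortex, summed to 1142 CPM in ISP 18 and 1670.2 CPM in Veh 6 and to at most 4.29 CPM elsewhere. The 12 oligodendrocyte markers summed to 4996 to 11893 CPM in ISP, 2969 to 7343 CPM in Veh and 3459 to 5209 CPM in control. The tissue is a mixture of cells, so fewer cells of a type and less RNA per cell cannot be told apart.

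Per kilobase of exon, Rtn4, Lingo1 and Rtn4r had the highest means of the 10 genes in all groups and Ngfr the lowest. In FPKM by exon-union length, Lingo1 was at 85.8 ± 10.7 in ISP, 109 ± 15.8 in Veh and 116 ± 12.7 in control (SD, n = 4 each), and Rtn4 was at 93.0 ± 3.63 in ISP, 86.0 ± 2.14 in Veh and 89.7 ± 3.97 in control. Rtn4 ranked above Lingo1 in ISP, where their ranges overlapped, and below it in Veh and control, where they did not. Rtn4r had the third mean, at 63.0 ± 11.5 FPKM in ISP, 85.4 ± 10.7 in Veh and 80.8 ± 12.1 in control, followed by Omg, at 56.6 ± 6.90 FPKM in ISP, 62.1 ± 5.41 in Veh and 59.6 ± 2.41 in control. Rtn4r overlapped the gene ranked above it in every group, Lingo1 in ISP and Rtn4 in Veh and control, and it overlapped Omg in ISP only. Rtn4rl2, Ptprs and Rtn4rl1 followed in that order, with overlapping neighbours only for Rtn4rl2 and Ptprs in ISP and for Ptprs and Rtn4rl1 in Veh. Ptprf and Ptprd, both between 5.81 and 7.71 FPKM on average, overlapped in every group. Ngfr was at 0.372 ± 0.0879 FPKM in ISP, 0.302 ± 0.15 in Veh and 0.239 ± 0.219 in control, from 4 to 48 counts per library. The order rests partly on the length used. With the longest coding transcript in place of all exons Ptprs was at 57.9 FPKM in ISP, 61.3 in Veh and 65.96 in control, beside or above Omg.

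**Figure D1:**
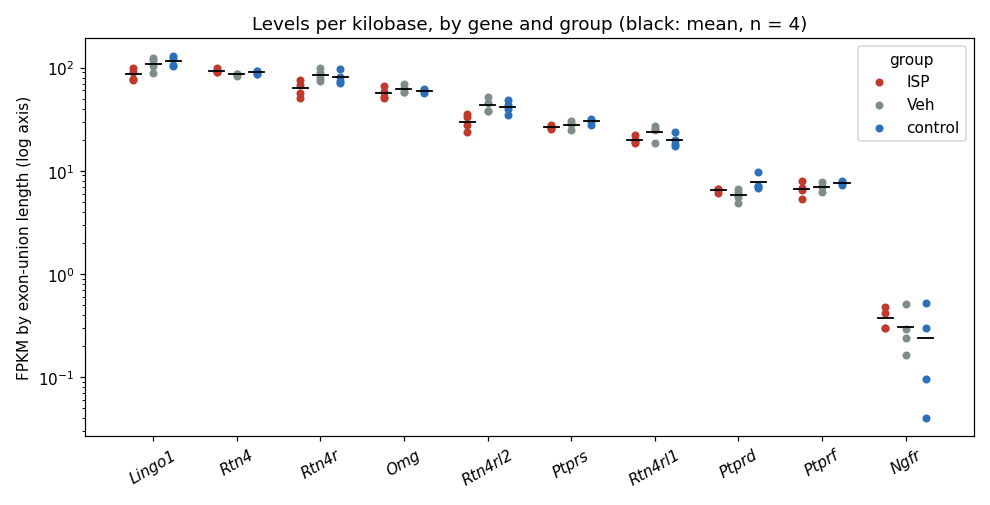
Level per kilobase (FPKM by exon-union length, log axis) of the 10 genes in each of 12 libraries, with ISP, Veh and control side by side and the group mean as a black bar. Lingo1 and Rtn4 lie at the top with means of 85.8 to 116 FPKM, and Ngfr lies below all other genes with means of 0.239 to 0.372 FPKM.

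Of the 3 phosphatase genes none passed the adjusted threshold of edgeR in any comparison. Ptprs, which encodes the target of the peptide, averaged 397 ± 12.1 CPM in ISP, 419.98 ± 35.5 CPM in Veh and 452 ± 25.8 CPM in control (SD, n = 4 each). It lies on chromosome 17 (GRCm38, 56412426 to 56476483, minus strand). Its level was 400.25, 392.3, 383 and 412 CPM in ISP (replicates 12, 14, 16 and 18), 371, 423, 429 and 457 CPM in Veh (replicates 2, 6, 8 and 10) and 417, 459.5, 452 and 479 CPM in control (replicates 19, 21, 36 and 38). The ISP libraries lay within the Veh range and below all control libraries. The log2 fold change of ISP over Veh was -0.08 (standard error, SE, 0.08, 95% interval -0.25 to 0.09, adjusted p = 0.628 from edgeR's quasi-likelihood test with Benjamini-Hochberg adjustment over 15214 genes). Differences within that interval could not be resolved with 4 libraries a group. Ptprs made up 67.0% ± 2.04 of the summed FPKM of the phosphatase genes in ISP, 68.6% ± 1.55 in Veh and 66.2% ± 1.51 in control (SD, n = 4 each), values that depend on the long exon union of Ptprd.

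Ptprf, which encodes LAR (chromosome 4, 118208213 to 118291405, minus strand), was at 48.6 to 72.3 CPM in ISP, 56.6 to 71.0 CPM in Veh and 66.02 to 73.2 CPM in control. Its ISP libraries spanned the whole Veh range, and the log2 fold change of ISP over Veh was -0.08 (95% interval -0.34 to 0.17, adjusted p = 0.76 from edgeR). Without ISP 12, the lowest library, it was 0.01. Ptprd encodes PTPδ, a phosphatase that organizes synapses with partners such as the Slitrk proteins (chromosome 4, 75941238 to 78211961, minus strand). It was at 140.0, 149, 151 and 150.1 CPM in ISP, 111, 150.1, 126 and 143 CPM in Veh and 156, 223, 163 and 162 CPM in control. All ISP and all Veh libraries lay below all control libraries, among which replicate 21 stood out, and the ISP and Veh ranges overlapped. Ptprd had a log2 fold change of 0.15 for ISP over Veh (95% interval -0.05 to 0.36, adjusted p = 0.448 from edgeR).

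**Figure D2:**
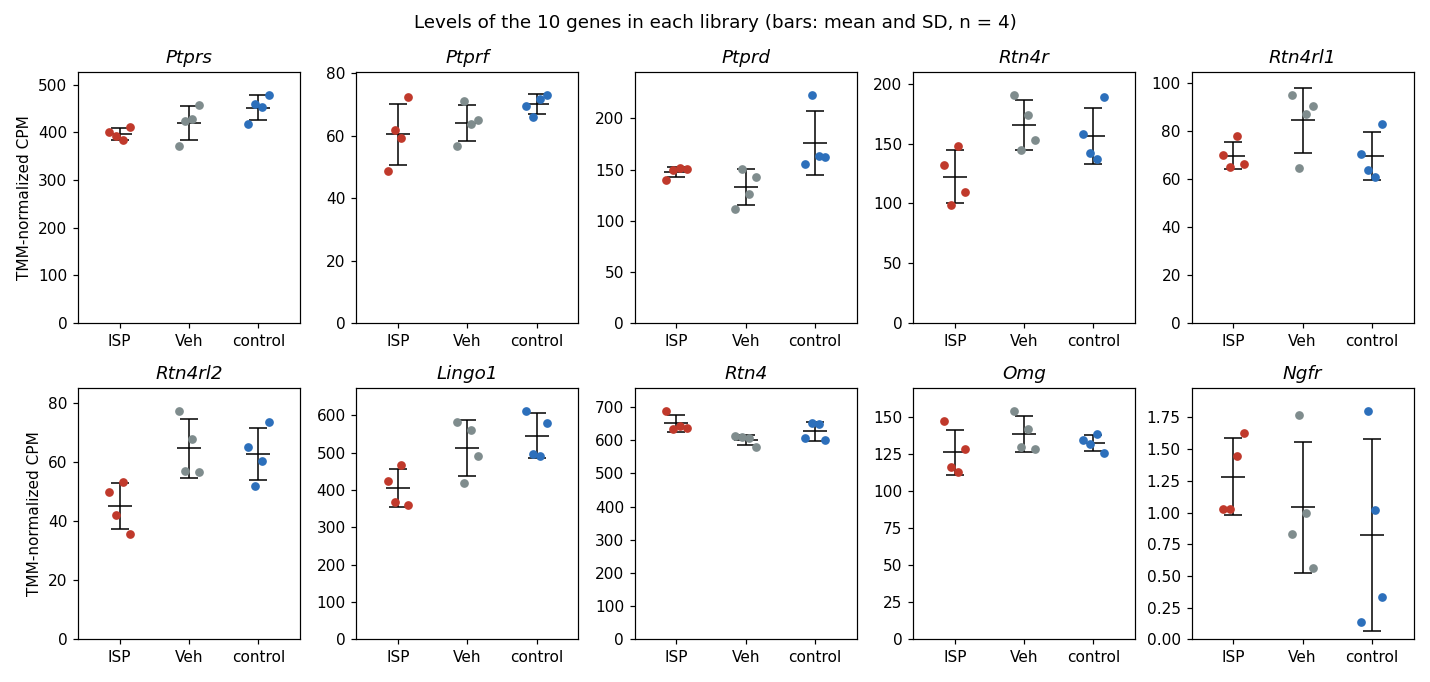
TMM-normalized CPM of each of the 10 genes in every library (points), with ISP, Veh and control on the x axis and the mean and SD of 4 libraries as bars. Rtn4rl2 is lower in all ISP libraries (35.6 to 53.1 CPM) than in all Veh libraries (56.6 to 77.3 CPM), and Ptprd is lower in all ISP (140.0 to 151 CPM) and Veh libraries (111 to 150.1 CPM) than in control (156 to 223 CPM).

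The Nogo receptor genes and Lingo1 all had lower mean levels with ISP than with Veh, none past the adjusted threshold of edgeR. Of the 10 genes, 4 had an unadjusted p under 0.05 from edgeR, all lower in ISP: Rtn4r, Rtn4rl1, Rtn4rl2 and Lingo1. Across all 15214 genes tested 15.3% had such a p, 7.47% in the lower direction. At an adjusted p under 0.1 edgeR called 0 of the 10 genes and 0 of all genes (0%), limma-voom also called 0, and DESeq2 called Rtn4r and Rtn4rl2 among 2.45% of 16363 genes (1.33% lower in ISP). The groups did not overlap for 2 of the 10 genes, Rtn4rl2 (lower in ISP) and Rtn4 (higher in ISP), against 6.81% of all genes, of which 4.01% were lower and 2.8% higher in ISP.

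The 250 bases upstream of annotated starts of Rtn4r, Rtn4rl2 and Lingo1 are shown beside those of Ptprs (RefSeq, GRCm38.p6). Starts were on file for 7 of the 10 genes, and those of Ptprd, Rtn4rl1 and Omg were not analysed here. Capitals mark the GC box, GGGCGG or its reverse complement CCGCCC, a motif bound by Sp1-family factors.
Ptprs, chr17:56476481-56476730, minus strand: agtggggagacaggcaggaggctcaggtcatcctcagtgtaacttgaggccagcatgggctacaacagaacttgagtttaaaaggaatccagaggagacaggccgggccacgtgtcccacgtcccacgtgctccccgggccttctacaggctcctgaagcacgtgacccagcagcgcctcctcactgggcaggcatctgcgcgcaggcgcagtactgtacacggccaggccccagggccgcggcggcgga
Rtn4r, chr16:18127392-18127641, plus strand: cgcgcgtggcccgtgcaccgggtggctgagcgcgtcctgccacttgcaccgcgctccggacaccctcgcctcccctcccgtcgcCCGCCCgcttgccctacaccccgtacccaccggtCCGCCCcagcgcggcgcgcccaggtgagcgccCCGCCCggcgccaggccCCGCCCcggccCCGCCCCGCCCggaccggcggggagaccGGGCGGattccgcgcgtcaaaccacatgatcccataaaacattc
Rtn4rl2, chr2:84886693-84886942, minus strand: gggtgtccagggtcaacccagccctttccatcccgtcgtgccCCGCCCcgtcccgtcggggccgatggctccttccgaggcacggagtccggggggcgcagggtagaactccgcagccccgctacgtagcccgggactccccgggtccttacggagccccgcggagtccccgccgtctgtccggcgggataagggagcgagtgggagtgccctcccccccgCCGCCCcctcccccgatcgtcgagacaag
Lingo1, chr9:56796311-56796560, minus strand: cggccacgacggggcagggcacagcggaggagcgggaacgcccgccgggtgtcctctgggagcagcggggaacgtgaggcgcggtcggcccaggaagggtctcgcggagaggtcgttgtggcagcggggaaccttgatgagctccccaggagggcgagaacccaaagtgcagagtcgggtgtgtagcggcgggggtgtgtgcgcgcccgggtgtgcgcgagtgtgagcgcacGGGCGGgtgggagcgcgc
Counted on both strands and with overlaps, the Rtn4r sequence holds 7 GC boxes, that of Rtn4rl2 2, that of Lingo1 1 and that of Ptprs 0, where 32.7% of 32851 promoter windows of this length hold at least 1. Rtn4r has 38 CpG dinucleotides, Lingo1 31 and Rtn4rl2 29, against 15 in Ptprs and a median of 6 over all windows. The Ptprs window holds 3 copies of the E-box CACGTG, a motif found in 6.02% of windows, and the other windows printed hold none. The GC box and E-box counts of Ptprs do not hold for its other annotated start. That window has 3 GC boxes, 0 E-boxes and 15 CpG dinucleotides. Windows not printed also hold GC boxes, with 2 for Ptprf, 4 for Ngfr, 1 for the other start of Lingo1 and 3, 1 and 0 for the starts of Rtn4. In the same order their CpG counts were 18, 16, 22 and, for the starts of Rtn4, 12, 31 and 1. A match describes these letters only, and any part of them in the levels was not tested.

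Rtn4rl2 encodes NgR2, a receptor for myelin-associated glycoprotein (chromosome 2, 84871924 to 84886710, minus strand). Its level was 49.9, 42.0, 53.1 and 35.6 CPM in ISP, 77.3, 56.9, 67.7 and 56.6 CPM in Veh and 64.9, 52.0, 60.4 and 73.4 CPM in control. Every ISP library was below every Veh library, with ISP 18 and ISP 14 the lowest, while ISP 16 lay just above the lowest control library. The log2 fold change of ISP over Veh was -0.52 (SE 0.14, 95% interval -0.82 to -0.21), with an adjusted p = 0.261 from edgeR and an adjusted p = 0.0484 from DESeq2. Rtn4rl2 transcripts were the richest in G and C of the 10 genes, with 67.9% on average. After correction for the trends of GC content and exon-union length over all genes, its log2 fold change was -0.16 (adjusted p = 0.634).

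Rtn4r, the gene of NgR1 (chromosome 16, 18127642 to 18152408, plus strand), was at 132, 98.6, 148 and 109.8 CPM in ISP, 191, 145, 174 and 153 CPM in Veh and 158, 142, 137 and 189 CPM in control. ISP 14 and ISP 18 were the lowest of all 12 libraries, and only ISP 16 exceeded the lowest Veh library, Veh 6. The log2 fold change of ISP over Veh was -0.44 (SE 0.13, 95% interval -0.72 to -0.15), with an adjusted p = 0.263 from edgeR and an adjusted p = 0.0653 from DESeq2. After the same correction (62.7% G and C for Rtn4r) it was -0.20 (adjusted p = 0.487).

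Lingo1 encodes a leucine-rich repeat protein that joins the NgR1 complex and restrains oligodendrocyte differentiation (chromosome 9, 56618475 to 56796468, minus strand). It was at 425, 369, 466 and 359 CPM in ISP, 581, 417, 561 and 489.9 CPM in Veh and 611, 497, 492 and 579.96 CPM in control. All ISP libraries were below all control libraries, and Veh 6 lay among the ISP libraries. The log2 fold change of ISP over Veh was -0.34 (SE 0.12, 95% interval -0.60 to -0.08), with an adjusted p = 0.271 from edgeR and an adjusted p = 0.119 from DESeq2. It was -0.25 after correction for GC content and length.

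Rtn4rl1, the gene of NgR3 (chromosome 11, 75193783 to 75267769, plus strand), was at 69.8, 65.1, 77.7 and 66.4 CPM in ISP, 95.1, 64.8, 87.2 and 90.3 CPM in Veh and 70.5, 63.8, 60.8 and 83.0 CPM in control. Of the Veh libraries 3 were above all ISP libraries, and Veh 6 was below them all. The log2 fold change of ISP over Veh was -0.27 (SE 0.12, 95% interval -0.53 to -0.02, adjusted p = 0.304 from edgeR). The mean in ISP was close to that in control, with a log2 fold change of 0.00 (95% interval -0.23 to 0.23) for ISP over control.

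ISP 14 and ISP 18, the libraries with the highest sums of activated myeloid and reactive astrocyte markers, were also the lowest ISP libraries for Rtn4r, Rtn4rl2 and Lingo1. Without these libraries the log2 fold changes of ISP over Veh were -0.24 for Rtn4r (adjusted p = 0.646), -0.33 for Rtn4rl2 (adjusted p = 0.623), -0.20 for Lingo1 (adjusted p = 0.682) and -0.19 for Rtn4rl1 (adjusted p = 0.716) from edgeR, and DESeq2 called 0 of the 10 genes. Without ISP 18 and Veh 6, the libraries with choroid plexus markers, they were -0.45 for Rtn4r, -0.48 for Rtn4rl2, -0.38 for Lingo1 and -0.36 for Rtn4rl1, with adjusted p = 0.174 to 0.229 from edgeR. Markers of upper-layer neurons varied between libraries too, with a summed level over 10 genes of 476, 519.8, 713 and 514 CPM in ISP, 891, 511, 855 and 1034 CPM in Veh and 996, 687, 471 and 889.7 CPM in control. Low values of this list thus occurred in ISP 12, ISP 14, ISP 18, Veh 6 and control 36. The 9 markers of deep-layer neurons summed to 414, 303, 316 and 384 CPM in ISP, 284, 385, 279 and 195 CPM in Veh and 230, 350, 383 and 267 CPM in control. ISP 12, ISP 18, Veh 6 and control 36 had the highest deep-layer sums, and ISP 14 did not. ISP 14 and ISP 18 were the lowest ISP libraries for Rtn4r, Rtn4rl1, Rtn4rl2 and Lingo1. Leaving them out therefore raises the ISP mean of these genes by construction, and leaves fewer libraries to test. The part of cell makeup in the receptor values was not tested.

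**Figure D3:**
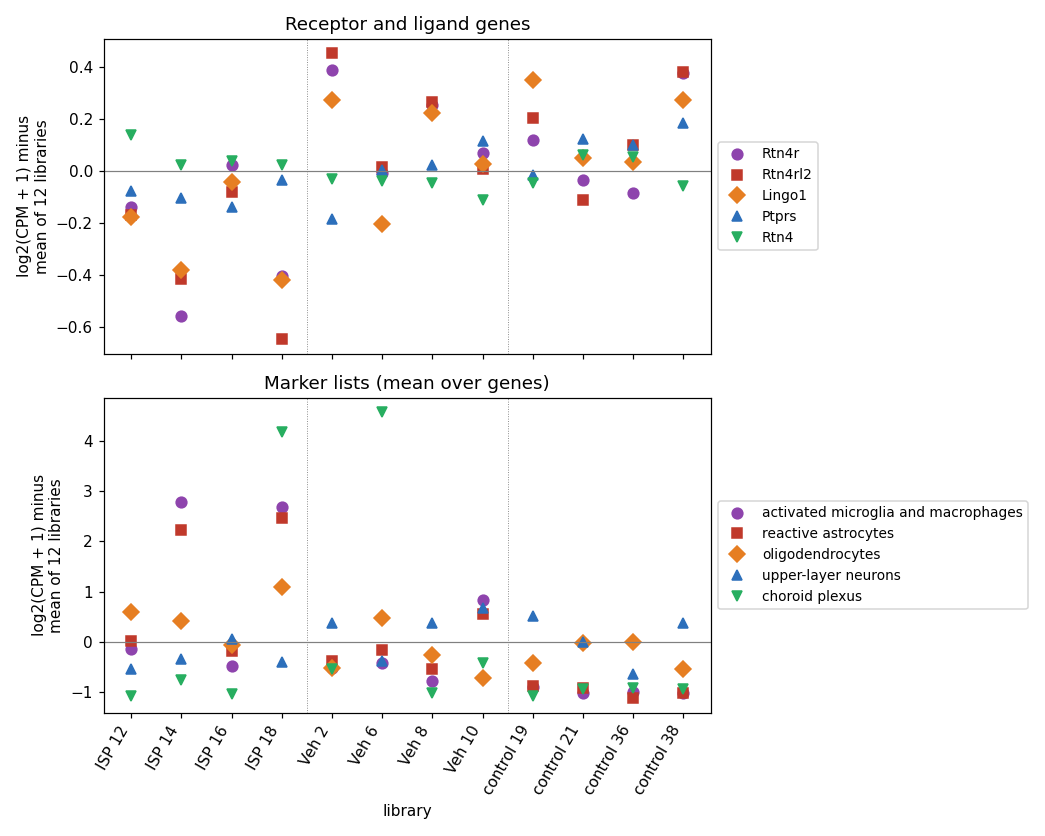
Deviation of each library from the mean of all 12 libraries, in log2(CPM + 1), for Rtn4r, Rtn4rl2, Lingo1, Ptprs and Rtn4 (top) and for the mean of 5 marker lists (bottom), with ISP, Veh and control libraries from left to right. ISP 14 and ISP 18 are lowest for Rtn4r and Lingo1 and highest for markers of activated microglia and macrophages and of reactive astrocytes, and the choroid plexus list is high in ISP 18 and Veh 6 only.

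Across all genes, the fold change of ISP over Veh was lower at higher GC content. The median log2 fold change was 0.09 in the tenth of genes with the lowest GC content (31.3% to 42.5%) and -0.13 in the tenth with the highest (58.1% to 83.1%). The transcripts of Rtn4rl2, Rtn4r, Ptprs (59.6%), Lingo1 (59.1%) and Ngfr (58.6%) were in that top range, and those of Omg (41.7%) in the lowest. Removing the trends brought the log2 fold changes of Rtn4r, Rtn4rl1, Rtn4rl2 and Lingo1 to between -0.25 and -0.16, and that of Rtn4 to 0.01.

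**Figure D4:**
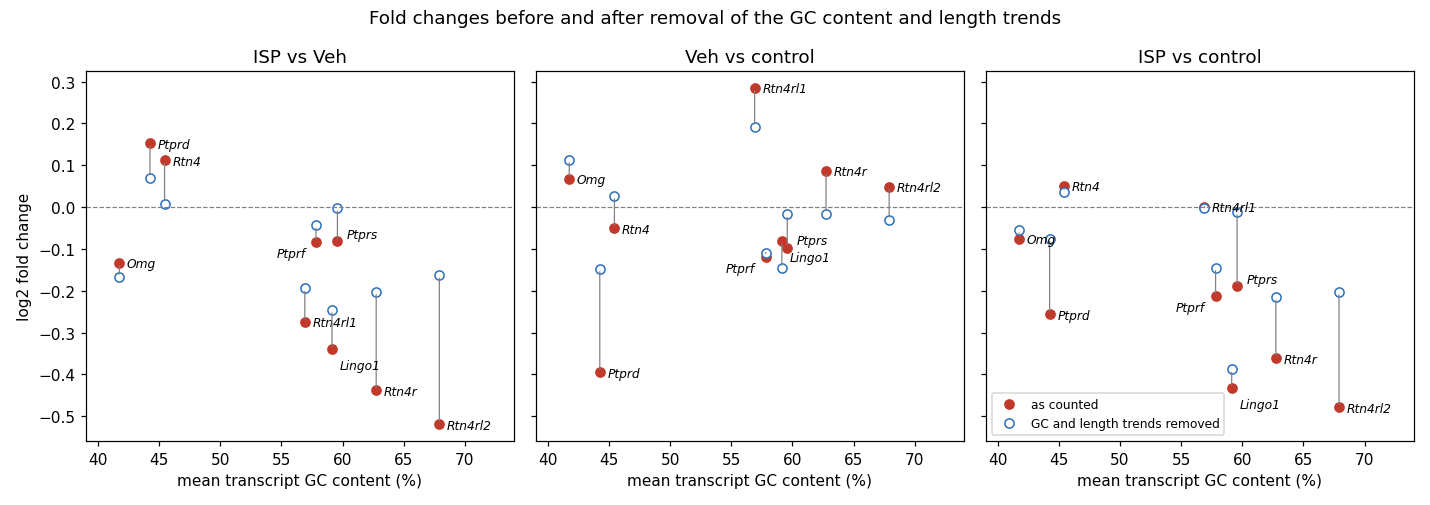
Log2 fold change against mean transcript GC content (%) for 9 of the genes in the 3 comparisons, as counted (filled) and after removal of the trends with GC content and length (open). In ISP over Veh, Rtn4rl2 moves to -0.16, against -0.52 as counted, and in Veh over control Ptprd moves to -0.15, against -0.40 as counted. Ngfr is left out for its low counts.

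Of the 2 ligand genes, Rtn4 had no overlap between ISP and Veh, and Omg overlapped. Rtn4 encodes the Nogo proteins (chromosome 11, 29692947 to 29744331, plus strand) and was at 688, 635, 643 and 636 CPM in ISP, 612, 609, 606 and 579.5 CPM in Veh and 605, 653, 649 and 600.5 CPM in control. All ISP libraries were above all Veh libraries, ISP 12 the highest, and the control range overlapped both. The log2 fold change of ISP over Veh was 0.11 (SE 0.06, 95% interval -0.03 to 0.25, adjusted p = 0.416 from edgeR). Nogo-A, Nogo-B and Nogo-C come from this same gene and were not separated in the counts. Rtn4 shares 1284 of its 6991 exon bases with Eml6 on the other strand, and since the library protocol describes no strand marking, reads there cannot be assigned with certainty. Eml6 had 205 to 623 counts per library, against 10316 to 18736 for Rtn4. Omg (chromosome 11, 79500982 to 79504084, minus strand), which lies inside an intron of Nf1, was at 113 to 147 CPM in ISP, 128 to 154 CPM in Veh and 126 to 139 CPM in control. Its ranges overlapped between all groups, and its log2 fold change of ISP over Veh was -0.13 (95% interval -0.35 to 0.08, adjusted p = 0.528 from edgeR).

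Ngfr, the gene of p75 (chromosome 11, 95568818 to 95587735, minus strand), had 20, 25, 30 and 48 counts in ISP, 14, 44, 22 and 12 in Veh and 4, 42, 24 and 7 in control. These are 1.03 to 1.63 CPM in ISP, 0.566 to 1.77 CPM in Veh and 0.137 to 1.80 CPM in control, with overlap between all groups. Its log2 fold change of ISP over Veh was 0.29 (95% interval -0.62 to 1.21, adjusted p = 0.762 from edgeR). At these counts no direction can be read from it.

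Against the libraries labelled control, vehicle-treated cortex had 1 of the 10 genes called by DESeq2, Ptprd, and none by edgeR. In Veh over control edgeR called 0 of them at an adjusted p under 0.1, where 2.23% of 15126 genes were called, and 2 had an unadjusted p under 0.05, as had 16.3% of all genes. These were Ptprd, with a log2 fold change of -0.40 (SE 0.12, 95% interval -0.66 to -0.13, adjusted p = 0.142 from edgeR), and Rtn4rl1, with 0.29 (SE 0.13, 95% interval 0.01 to 0.56, adjusted p = 0.28 from edgeR). Ptprd was the only one of the 10 without overlap between Veh and control, as were 9.67% of all genes (5.39% lower in Veh), and the only one called by DESeq2 (adjusted p = 0.0429, with 6.48% of 17124 genes called, 3.64% lower in Veh). Its log2 fold change was -0.27 without control 21 and -0.15 after correction for GC content and length. The log2 fold changes of Ptprs, Ptprf, Rtn4r, Rtn4rl2, Lingo1, Rtn4 and Omg lay between -0.12 and 0.09. After that correction, Rtn4r (-0.02), Rtn4rl2 (-0.03) and Rtn4 (0.03) had the opposite sign.

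In ISP over control, Lingo1 and Rtn4rl2 fell, and no gene of the 10 rose. These were 2 of the 10 genes, where edgeR called 10.2% of 15232 genes at an adjusted p under 0.1 and 3.42% in the lower direction. An unadjusted p under 0.05 from edgeR was found for 5 of the 10, all lower in ISP, and for 22.3% of all genes. Lingo1 averaged 405 ± 50.3 CPM in ISP and 545 ± 59.9 CPM in control (SD, n = 4 each), a log2 fold change of -0.43 (SE 0.10, 95% interval -0.66 to -0.20, adjusted p = 0.0403 from edgeR). Rtn4rl2 averaged 45.1 ± 7.89 CPM in ISP and 62.7 ± 8.91 CPM in control (SD, n = 4 each), a log2 fold change of -0.48 (SE 0.14, 95% interval -0.78 to -0.18, adjusted p = 0.0661 from edgeR). The call of Lingo1 was lost without ISP 14 (adjusted p = 0.128), ISP 18 (adjusted p = 0.106) or control 38 (adjusted p = 0.12), and with ISP 14 and ISP 18 both left out it had -0.29 (adjusted p = 0.383). That of Rtn4rl2 was lost without ISP 14, ISP 18, control 19, control 36 or control 38 (adjusted p = 0.118 to 0.182), without both ISP libraries (-0.28, adjusted p = 0.504) and after correction for GC content and length (-0.20, adjusted p = 0.427). After that correction Lingo1 kept its call, at -0.39 (adjusted p = 0.0364). Leaving out ISP 14 or ISP 18, the lowest ISP libraries of both genes, brings the ISP mean nearer to control by construction.

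Groups did not overlap for Lingo1, Ptprs and Ptprd, all lower in ISP than in control, against 11.9% of all genes, 4.75% in the lower direction. Ptprs had a log2 fold change of -0.19 for ISP over control (SE 0.07, 95% interval -0.34 to -0.04), with an adjusted p = 0.126 from edgeR, an adjusted p = 0.0523 from DESeq2 and an adjusted p = 0.0781 from limma-voom. It was -0.01 after correction for GC content and length. Rtn4r had -0.36 (95% interval -0.65 to -0.07, adjusted p = 0.138 from edgeR and adjusted p = 0.0763 from DESeq2). Without ISP 16 it was called, at -0.47 (adjusted p = 0.0415 from edgeR). ISP 16 was its highest ISP library, at 148 CPM, so leaving it out lowers the ISP mean by construction. That fit called 2283 of all genes, against 1547 with ISP 16 included. Over all settings the log2 fold change of Rtn4r ran from -0.47 to -0.16. DESeq2 called 4 of the 10 genes, Ptprs, Rtn4r, Rtn4rl2 and Lingo1, all lower in ISP, among 13.7% of 16806 genes (5.1% lower). Ptprd had -0.26 (adjusted p = 0.179), Ptprf -0.21, Omg -0.08, Rtn4 0.05 and Ngfr 0.66 (adjusted p = 0.587 from edgeR). Over all settings the value of Ptprd ran from -0.32 to -0.08, and without control 21 it was -0.13. The 3 comparisons share libraries in pairs, so their values are not independent of each other.

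**Figure D5:**
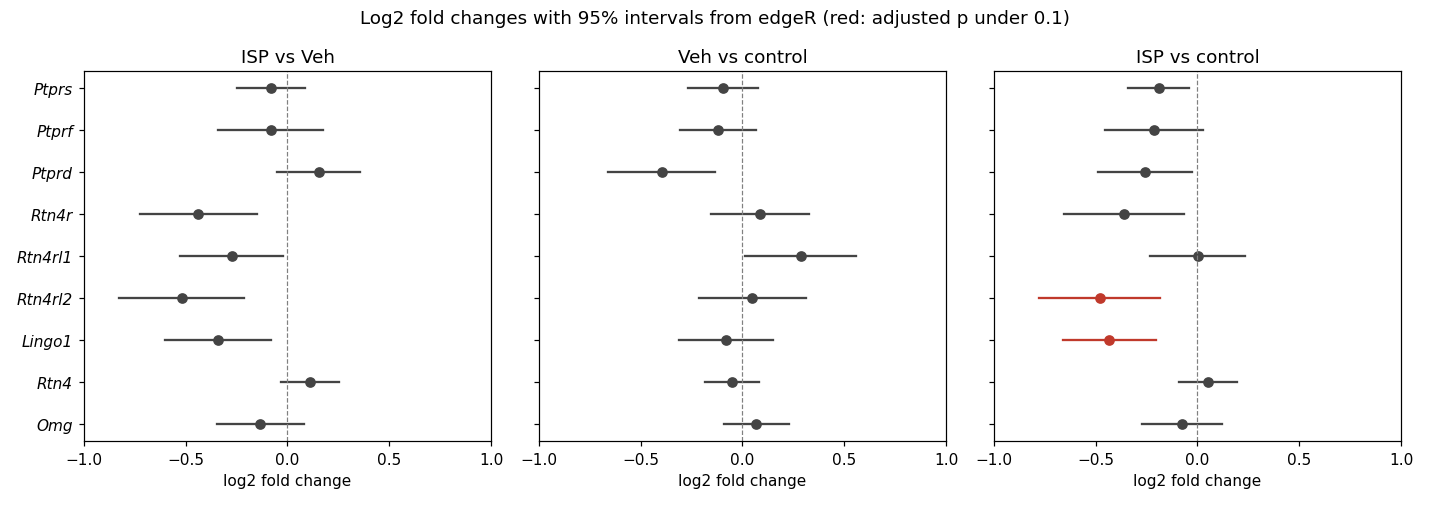
Log2 fold changes (points) with 95% intervals from edgeR (lines) for 9 of the genes in ISP over Veh, Veh over control and ISP over control, in red where the adjusted p was under 0.1. The red points are Rtn4rl2 (-0.48) and Lingo1 (-0.43) in ISP over control. Ngfr is left out for its wide intervals.

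Rtn4r, Rtn4rl2 and Lingo1 varied together over the 12 libraries. In log2(CPM + 1), Rtn4r and Rtn4rl2 had Pearson's r = 0.932 and Spearman's rho = 0.902 (permutation p = 7e-05 and p = 0.00019, adjusted p = 0.0015 and adjusted p = 0.00855 over the 45 pairs of the 10 genes). Rtn4rl2 and Lingo1 had r = 0.913 and rho = 0.839 (permutation p = 7e-05 and p = 0.00131, adjusted p = 0.0015 and adjusted p = 0.0291). Rtn4r and Lingo1 had r = 0.894 and rho = 0.825 (permutation p = 1e-04 and p = 0.00194, adjusted p = 0.0015 and adjusted p = 0.0291). These were the only pairs of the 45 with an adjusted p under 0.05. Without the 2 libraries farthest from the median of the first gene, r was 0.913, 0.88 and 0.779 for these pairs in the same order, and with group means removed it was 0.861, 0.848 and 0.859. After GC content and length correction of each library it was 0.845, 0.687 and 0.742. Of the phosphatase genes, Ptprs and Ptprf had r = 0.618 (rho = 0.657, permutation p = 0.0302 and p = 0.0231, adjusted p = 0.189 and adjusted p = 0.111). All pairs share the depth and cell makeup of each library. The permutations shuffled all 12 libraries across groups, so the p-values measure departure from no correlation only. Other genes had r of 0.957 to 0.964 with Rtn4rl2, and the share of all gene pairs with such values was not counted. The correlation is thus not shown to be particular to these genes.

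Among 11379 genes with a mean of at least 5 CPM, predicted genes left out, those most like Rtn4rl2 over the 12 libraries were Dkkl1 (r = 0.964), Csnk1g2 (r = 0.961), Ppme1 (r = 0.959), Vstm2l (r = 0.958) and Prkar1b (r = 0.957). Among those most like Ptprs were Mest (r = 0.927), Entr1 (r = 0.903), Trrap (r = 0.9) and Megf9 (r = 0.895). Most like Rtn4 were Nkap (r = 0.936), Rubcn (r = 0.918), Fbxo28 (r = 0.908), Ank (r = 0.893) and Hars2 (r = 0.889). These values are a description over libraries and were picked as the highest of all genes.

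Other genes of the Nogo receptor pathway were counted beside these 10. Of 15 further ligands, co-receptors, antagonists and relatives tested in ISP over Veh, edgeR called 0, as of all genes, and 4 had an unadjusted p under 0.05, all lower, where 7.47% of all genes had one in that direction. These were Lingo2, a relative of Lingo1, at -0.53 (11.7 ± 2.92 CPM in ISP and 16.9 ± 3.30 CPM in Veh), Lingo3 at -0.24, Olfm1, which encodes an NgR1-binding secreted protein, at -0.22, and Adgrb1, whose product binds RTN4 receptors, at -0.23. The median log2 fold change of the list was -0.15, beside 0.02 over all genes. Mag, the gene of myelin-associated glycoprotein, had 0.59 (SE 0.31, adjusted p = 0.379 from edgeR), at 228 ± 87.3 CPM in ISP and 151 ± 69.1 CPM in Veh. The 12 oligodendrocyte markers had a median log2 fold change of 0.78 in the same comparison, positive for 12 of 12, and 10 had an unadjusted p under 0.05 from edgeR. Their part in the value of Mag was not tested. Adgrb1 and Mag were named after their values were seen. In Veh over control edgeR called 0 of 14 and DESeq2 called 1, Tspan3, where they called 2.23% and 6.48% of all genes. The smallest p-values from edgeR were those of Tspan3 (0.20, adjusted p = 0.173, against adjusted p = 0.0992 from DESeq2) and Tnfrsf19, the gene of TROY (0.34, adjusted p = 0.28). In ISP over control, where edgeR called 3.42% of all genes lower and 10.2% in either direction, 4 of 14 fell and 0 rose: Lingo2 (-0.69, adjusted p = 0.0511), Lingo3 (-0.43, adjusted p = 0.0543), Lgi1 (-0.31, adjusted p = 0.0652) and Adgrb1 (-0.30, adjusted p = 0.0762), all from edgeR. The median there was -0.16, beside -0.01 over all genes. Without ISP 14 and ISP 18, 0 of these 14 were called and Lingo2 was at -0.61 (adjusted p = 0.361). That fit, with fewer libraries, called 90 of all genes, against 1547 with ISP 14 and ISP 18 included. A lost call there need not mean a changed value. After correction for GC content and length, Lgi1 (-0.25, adjusted p = 0.141) and Adgrb1 (-0.17, adjusted p = 0.192) lost their calls and Rtn2 (-0.33, adjusted p = 0.0571) gained one.

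Of 23 tested synaptic ligands, adaptors and substrates of the LAR-family phosphatases, edgeR called 0 in ISP over Veh, as of all genes. At an unadjusted p under 0.05 from edgeR, 2 were higher and 3 lower, beside 15.3% of all genes in either direction and 7.47% lower. Ntrk3, which encodes TrkC, a synaptic ligand of PTPσ, was at 49.5 ± 4.06 CPM in ISP and 68.4 ± 9.35 CPM in Veh, a log2 fold change of -0.47 (SE 0.11, adjusted p = 0.261 from edgeR and adjusted p = 0.0221 from DESeq2). Il1rap, a ligand of PTPδ, had 0.32 (adjusted p = 0.274) and Slitrk1 -0.23 (adjusted p = 0.277). In Veh over control 0 were called by edgeR, beside 2.23% of all genes. Trio, a guanine nucleotide exchange factor that binds LAR, had -0.33 (adjusted p = 0.127 from edgeR and adjusted p = 0.0384 from DESeq2), with Il1rap at -0.31 and Slitrk4 at -0.27. DESeq2 called only Trio of this list there, beside 6.48% of all genes. In ISP over control 4 of 23 fell, beside the same 3.42% of all genes, and 0 rose, namely Slitrk4 (-0.50, adjusted p = 0.0254), Ppfia2, which encodes liprin-α2 (-0.42, adjusted p = 0.0536), Slitrk1 (-0.35, adjusted p = 0.0643) and Slitrk3 (-0.30, adjusted p = 0.0929), all from edgeR. The list's median log2 fold change was -0.02 in ISP over Veh, -0.07 in Veh over control and -0.12 in ISP over control, beside 0.02, 0.02 and -0.01 over all genes. Without ISP 14 and ISP 18, 0 of the 23 were called in ISP over control, where 90 of all genes were called, against 1547 with them. Slitrk4 was at -0.44 (adjusted p = 0.217) in that fit. After the correction Ntrk2 (0.36, adjusted p = 0.0286) and Ppfibp2 (0.78, adjusted p = 0.0897) gained calls.

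The RhoA and ROCK genes downstream of these receptors were called in both directions in ISP over control, 6 of 20 beside 10.2% of all genes. In ISP over Veh edgeR called 0 of 20, as of all genes, and the smallest p-values were those of Myh9 (0.25, adjusted p = 0.276), Rhoa (0.21, adjusted p = 0.282) and Cfl1, the gene of the actin-severing protein cofilin (-0.22, adjusted p = 0.288). In Veh over control Rock2, which encodes a kinase that acts on the actin cytoskeleton, fell by 0.42 on the log2 scale (SE 0.07, adjusted p = 0.0464 from edgeR), at 205 ± 9.62 CPM in Veh and 277 ± 22.5 CPM in control. It was the only 1 of the 20 called by edgeR there, beside 2.23% of all genes, and 0 rose. Without control 21 edgeR called 0 genes in all in that comparison, and after correction for GC content and length Rock2 was at -0.17 (adjusted p = 0.318). Rhob (0.23, adjusted p = 0.115 from edgeR and adjusted p = 0.0239 from DESeq2) and Ppp1r12a (-0.25, adjusted p = 0.166 from edgeR and adjusted p = 0.0782 from DESeq2) were next. In ISP over control Rhoa (0.28), Rhob (0.28) and Rhoc (0.75) rose and Myh10 (-0.29), Rock2 (-0.41) and Kalrn (-0.31) fell, with adjusted p = 0.0453 to 0.0922 from edgeR. Without ISP 14 and ISP 18 edgeR called 0 of the 20 there, and 90 of all genes, against 1547 with them. After correction for GC content and length Kalrn lost its call (-0.15, adjusted p = 0.346) and Myh9 gained one (0.34, adjusted p = 0.0401), giving 4 higher and 2 lower.

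Of 6 tested neurotrophin genes and receptors, edgeR called 0 in ISP over Veh, as of all genes. It called 0 in Veh over control, beside 2.23% of all genes. Bex3, whose product binds p75, had -0.28 (adjusted p = 0.277 from edgeR) in ISP over Veh. Bdnf, which encodes brain-derived neurotrophic factor, had -0.35 (adjusted p = 0.298) in Veh over control and fell in ISP over control, at 16.8 ± 6.23 CPM in ISP and 30.1 ± 5.45 CPM in control, a log2 fold change of -0.85 (SE 0.24, adjusted p = 0.0605 from edgeR). Bdnf was the only 1 of the 6 called by edgeR in ISP over control, beside 10.2% of all genes, 3.42% in the lower direction. DESeq2 gave it an adjusted p = 0.00703 there. After correction for GC content and length Bdnf was at -0.84 (adjusted p = 0.0588 from edgeR). Without ISP 14 and ISP 18 Bdnf in ISP over control was at -0.47 (adjusted p = 0.386 from edgeR). The genes named here from ISP over control were named after their values were seen, since the rule took genes from the other comparisons.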

How the data were processed

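RNA-seq of 12 mouse cortex libraries, 4 each for ISP, Veh and control, was analysed, with each library taken as 1 mouse and 1 biological replicate. Per the submitters' notes and the methods, the authors used HISAT2 for alignment to mm10 and HTSeq, with default parameters, for counting reads per gene. Tool versions are not given. The deposited table holds raw counts, which entered the tests unchanged.

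For each comparison, only the 8 libraries concerned were fitted, using edgeR 4.0.16 in R 4.3.3 (filterByExpr, TMM, quasi-likelihood test, Benjamini-Hochberg adjustment over all genes tested, called under 0.1, the study's adjusted p). The alternatives were DESeq2 1.42.0 (Wald test), DESeq2 size factors, no filter, at least 10 counts in every library, limma-voom with quality weights (limma 3.58.1), all 12 libraries in 1 fit, removal of GC content and length trends (loess, span 0.3), an adjusted p under 0.05, each library left out in turn, and ISP 14 and ISP 18 both left out. Added after seeing the data were DESeq2 without ISP 14 and ISP 18, edgeR without ISP 18 and Veh 6, and counts of the pathway lists without ISP 14 and ISP 18 and after GC content and length correction. FPKM used exon lengths of GENCODE M21, which held 24373 of 25238 symbols directly and 342 through RefSeq synonyms. Correlations used 1e+05 permutations over all 12 libraries, with groups ignored. The main edgeR fit was tested on simulated counts, and the other procedures were not.

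The genes and the lists were chosen with earlier results of these data known. The text names all 10 genes, from each pathway list up to 3 genes with the smallest edgeR p in ISP over Veh and in Veh over control, and the 5 genes most correlated with Ptprs, Rtn4rl2 and Rtn4. Adgrb1, Mag and the genes named from ISP over control fall outside this rule. A gene that this rule would name is not reported here. Protein sequences were not analysed here.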

Additional observations from a re-analysis of the deposited data

Results flagged for a closer look

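In 30 groups of 4 libraries (10 genes in 3 groups), 2 libraries lay far from the other 3 of their group by Dixon's criterion at the 95% level, which chance meets in about 1 of 20 groups. Ptprd was at 223 CPM in control 21, against 156 to 163 CPM in the other control libraries. Without control 21 the log2 fold change of Ptprd was -0.27 in Veh over control (adjusted p = 0.32 from edgeR) and -0.13 in ISP over control, against -0.40 and -0.26 with it. Rtn4 was at 688 CPM in ISP 12, against 635 to 643 CPM in the other ISP libraries. Without ISP 12 the log2 fold change of Rtn4 in ISP over Veh was 0.08, against 0.11 with it.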

How the results depend on the processing

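The 3 comparisons rest on 4 libraries per group, and mice are not numbered in common between groups. No paired analysis was possible because the groups share no replicate number. The labels name no batch.

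In ISP over Veh, edgeR called 0 genes and 0 of the 10, while DESeq2 called 401 and 2. DESeq2 without ISP 14 and ISP 18 called 17 genes, and edgeR without ISP 18 and Veh 6 called 31. Leaving out 1 library gave 0 to 72 genes, with 72 without Veh 6, 2 without ISP 12, and 0 of the 10 each time. In Veh over control, 337 genes and 0 of the 10 were called. The counts were 1109 and 1 with DESeq2, and the count of genes was 510 without a filter, 28 with all 12 libraries in 1 fit, 18 at an adjusted p under 0.05 and 0 (without control 21) to 461 with 1 library left out. In ISP over control, 1547 genes and 2 of the 10 were called. Of the 10, DESeq2 called 4, and 1 was called after correction for GC content and length and 1 at an adjusted p under 0.05, where 691 genes were called. Leaving out 1 library gave 420 (without ISP 14) to 2283 genes and 0 to 3 of the 10. Without ISP 14 and ISP 18, edgeR called 90 genes and DESeq2 284, with 0 of the 10 each.

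Some signs turned among values that were not called. Ptprf in ISP over Veh ran from -0.181 to 0.00774 over libraries left out, with the highest value without ISP 12. In Veh over control, correction for GC content and length gave -0.0162 for Rtn4r, -0.0311 for Rtn4rl2 and 0.02725 for Rtn4. Over libraries left out, values ran from -0.0506 to 0.127 for Rtn4rl2, from -0.152 to 0.00364 for Lingo1 and from -0.0190 to 1.09 for Ngfr. Rtn4rl1 in ISP over control was at -0.00537 without a filter, -0.0211 with limma-voom, -0.00143 after the correction and -0.0628 to 0.0919 over libraries left out. After the correction, ISP over control called 0 higher and 3 lower of the Nogo pathway list and 2 and 4 of the phosphatase partners. For the RhoA and ROCK genes the counts were 4 and 2, and for the neurotrophin genes 0 and 1. No share of all genes in the corrected fit is set beside these counts, so they are not read as results about the lists. The cause was not tested.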
